A study of Mus musculus with 2 samples.

Results

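The even probe set captured 416 regions of DNA that stood at a pileup of 15 or more, overlapped no peak of the odd probe set by even 1 base and had their summits over 1000 bp from every transcription start of a protein-coding gene. They were 416 of the 3637 peaks in the even list, and of the 451 even-only peaks of that height on chromosomes 1 to 19 another 35 lay nearer to such a start and were not members. The pileup is the number of extended reads stacked at the summit, the highest base of a peak. The members were thus chosen by their height, by the absence of a called odd peak at the same place and by position. Their height, fold enrichment and q-value are therefore given as a description and support nothing. By the summit base 191 members lay in the body of a protein-coding gene and 225 were intergenic.

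Gm19619 is a long noncoding RNA of the mouse liver, transcribed from the minus strand of chromosome 5. ChIRP (chromatin isolation by RNA purification) fixes an RNA to the chromatin around it, captures it with biotinylated DNA probes complementary to the RNA, and sequences the DNA that comes along. Primary hepatocytes of wild-type C57BL/6 mice, 4 females aged 8 weeks whose cells were pooled, had been fixed in 3% formaldehyde for 10 minutes and exposed to odd-numbered probes or to even-numbered ones, 7 in either case. Each set gave 1 library, with no replicate and no control library, so the sets share their cells, every mouse was of 1 genotype and untreated, and no value below has an error between libraries. The libraries kept 6972538 odd and 7052802 even reads after duplicates were removed, of 61155168 and 65783155. Captured DNA measures no expression, so the labelled cell type could not be checked against hepatocyte markers.

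In such an assay the probes are split into odd and even numbers so that each set serves as a check of the other: a place where the RNA itself lies should be recovered with both sets. A DNA probe is also able to pair with genomic DNA that carries its sequence or the complement. Sequence resemblance between a captured region and the probes of its own set is therefore a usual first thing to look at.

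The probes of the even set are shown first, because the members are described by their resemblance to them. Each probe is 20 bases long and is given here as its site on the plus strand of mm10 (GRCm38) in Gm19619, which has the letters of the probe. The site of probe 2 spans an exon junction and was read from the transcript. Those of probes 4, 6, 8, 10, 12 and 14 were at chr5:91273865-91273884, chr5:91258584-91258603, chr5:91258403-91258422, chr5:91258207-91258226, chr5:91257996-91258015 and chr5:91257764-91257783.
Even probe 2: gacactgagcccaatagaat
Even probe 4: ttcaaggtcattgacacacc
Even probe 6: actactgctacatgagatct
Even probe 8: cagattgtggatagtgatga
Even probe 10: aagcacatttccgaaggagt
Even probe 12: tcacccagatgagctaacaa
Even probe 14: gtggcatactgtcatatata

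Sites of these probes inside members are shown next, as 30 bases of mm10 read 5′ to 3′ on the strand that carries the probe's sequence, with the longest run of consecutive probe bases in capitals. A run is an uninterrupted stretch that matches the probe on either strand. For each probe except probe 4 the member with the longest run is given, and for probe 4 the tallest member that held a run of it.
Probe 2, run of 16 in an intron of Slc41a1, chr1:131839696-131839725, plus strand: tttcgtggACTGAGCCCAATAGAAagccat
Probe 4, run of 16, intergenic, chr19:10127087-10127116, plus strand: taaacaaggAGGTCATTGACACACCagcct
Probe 6, run of 16 in an intron of Fhit, chr14:10282153-10282182, plus strand: tgacagCTACTGCTACATGAGAccatggag
Probe 8, run of 16, intergenic, chr11:4327628-4327657, plus strand: ttttttAGATTGTGGATAGTGAaagttagc
Probe 10, run of 17 in an intron of Layn, chr9:51057863-51057892, minus strand: tctggcccCACATTTCCGAAGGAGTcctag
Probe 12, run of 17 in an intron of Pced1b, chr15:97339822-97339851, minus strand: ggaataccCCCAGATGAGCTAACAAacaaa
Probe 14, run of 16 in an intron of Zfhx4, chr3:5343962-5343991, minus strand: caagaGTGGCATACTGTCATAggaaacagg

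Most members carried such a run of an even probe, and almost none carried one of an odd probe. Of the 416 members, 271 held an even-probe run that reached 12 bases, or 65.1% (95% Wilson interval 60.4% to 69.6%, which covers counting error only, as do all intervals here). The rule left out regions that overlap an odd peak, which can itself lower the share with an odd-probe run. Odd-probe runs of at least 12 bases were found in 2 of the 416 members, or 0.481% (0.132% to 1.74%). Those 2 were an intronic region of Uhmk1, a kinase that binds RNA-processing factors, with a run of probe 7, and one of Des, which encodes the muscle filament protein desmin, with a run of probe 9; both were looked up after the count was seen. At a minimum of 10 bases the shares were 86.3% for even probes and 6.49% for odd probes, and at 14 bases they were 35.3% and 0 of 416, which allows a share of up to 0.915%.

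The genome as a whole set the scale. The known sequence of chromosomes 1 to 19 was cut into windows of 402 bp, the median length of a member, and 0.312% of 5960006 windows held an even-probe run of at least 12 bases, against 0.331% for odd probes. At 14 bases these shares were 0.0151% and 0.0159%. The members' interval for odd runs included the value of the windows, and that for even runs lay far above it.

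Weaker peaks of the same library and peaks of the odd library gave the nearest comparisons. Among 2318 even-only peaks away from promoters with a pileup under 15, 31.8% (interval up to 33.8%) held an even run of 12 or more bases, and 0.129% held an odd one. These weaker peaks were shorter, at a median of 222 bp against 402 bp, which leaves fewer bases in which a run can lie. Among 3623 odd-only peaks chosen by the same rule in the odd list, 45.2% (43.6% to 46.9%) held a run of their own set, and 0.304% held one of the even set. The members' interval lay above both others. In all 3 collections nearly all runs of this length were of the set whose list held the peak. All 3 were chosen to overlap no peak of the other set, and that choice can itself lower the share of the other set's runs.

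By class of pileup the share with a run was higher in taller peaks, though single values at the threshold broke this order, as given below. Over all even-only peaks away from promoters it was 19.9% at a pileup of 5 to 7, 35.3% at 10 to 11 and 53.5% at 12 to 14. Inside the membership rule it was 61.7% of 243 at 15 to 19, 68.3% of 142 at 20 to 29 and 77.4% of 31 at 30 or more. The intervals of neighbouring classes overlapped from a pileup of 12 upward, while the odd-probe share stayed at or below 0.704% in every class. Members were also longer than the peaks under 15, at a median of 402 bp against 222 bp. Length thus moves with height here, and whether height itself matters was not tested.

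**Figure D1:**
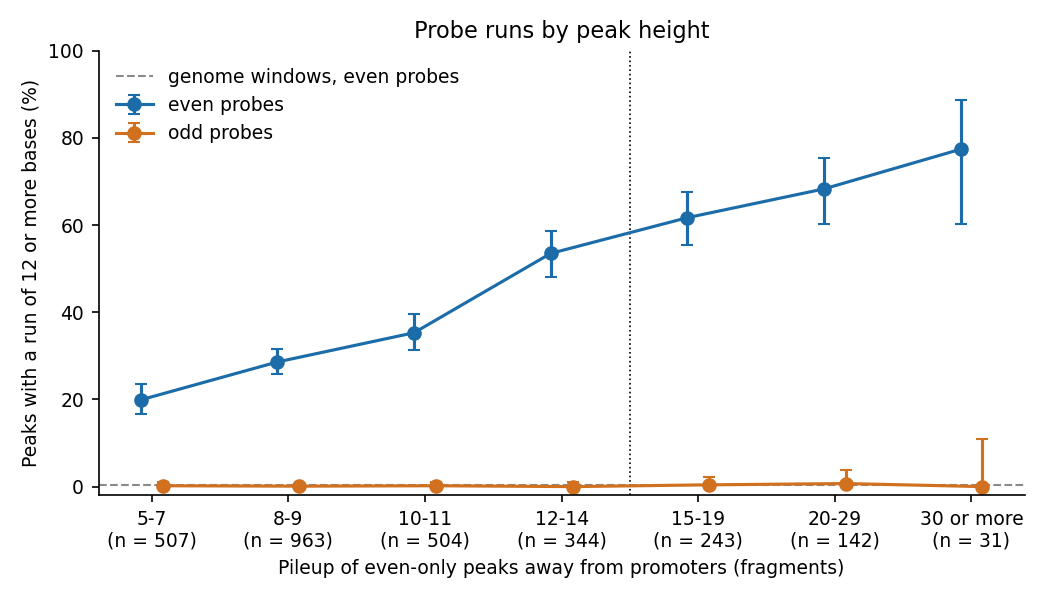
Percent of even-only peaks away from promoters that hold a run reaching 12 bases of even (blue) or odd (orange) probes, by pileup class, with 95% Wilson intervals. The dotted line marks the pileup of 15 that members had to reach and the dashed line the share of 402-bp genome windows with an even run, 0.312%; the even share climbs from 19.9% to 77.4% and the odd share stays near 0.

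At the threshold itself the order was not smooth. At a pileup of 15 there were 66 members, with a fold enrichment of 10.5, and 28 of them (42.4%) held a run of 12 or more bases, while 21 (31.8%) held none of 10. Just outside, 94 peaks with a pileup of 14 and a fold enrichment of 9.85 met every other condition, and 64 of these (68.1%) held a run of 12. At a pileup of 16 the share was 72.1% of 61 members. The lowest members were thus the poorest in runs of these neighbours. They were also the shortest, at a median of 308 bp against 344 bp at a pileup of 14 and 366 bp at 16.

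**Figure D2:**
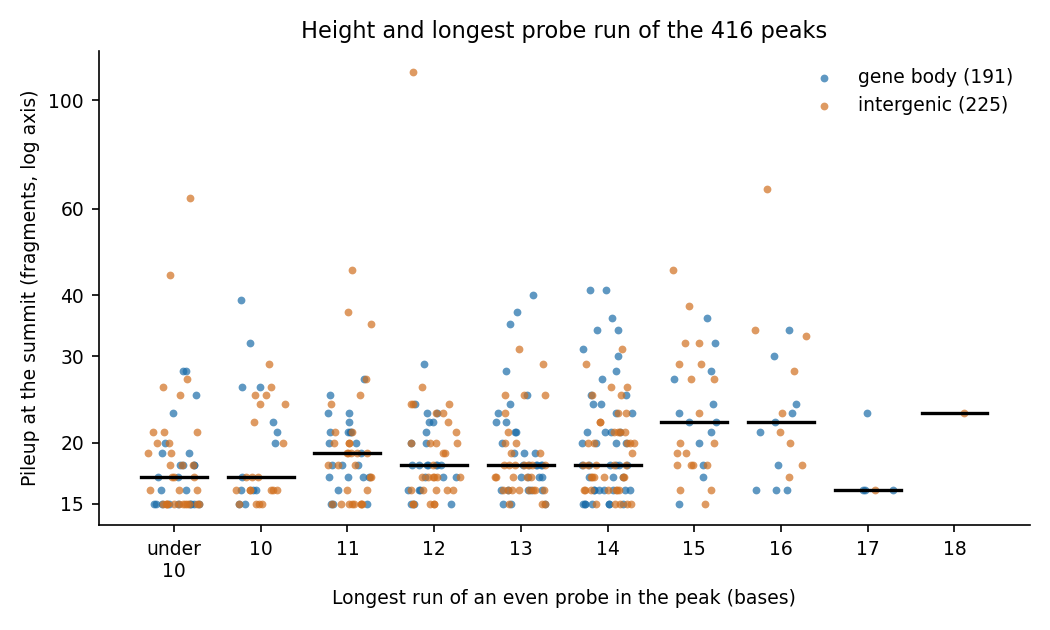
Pileup at the summit (log axis) of each of the 416 members against the longest run of an even probe in it, in gene bodies (blue) and outside them (orange), with a bar at the median of each run length. The medians lie between 17 and 19 for runs under 15 bases and at 22 for 15 bases, and the 3 tallest members have runs of 12, 16 and under 10 bases.

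Among the members, which the rule cut at a pileup of 15, median height differed little between run lengths. The median pileup was 17 for the 57 members with no run of 10, 18 for runs of 12, 13 and 14 bases, 22 for the 33 members with a run of 15, and 21 for the 25 members with 16 or more. All these groups spanned down to 15 or 16. The rule sets that floor for each of them, so no relation of height to run length is read from these values. The whole collection had a median pileup of 18 and a highest of 114, and only 3 members exceeded 49.

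The probes did not contribute equally. Taking the longest run in each member, probe 2 accounted for 103 members at 12 or more bases, probe 12 for 53, probe 4 for 47, probe 10 for 24, probes 8 and 14 for 19 each and probe 6 for 6. At a minimum of 10 bases probe 10 rose to 71 members and stood next to probe 2 with 118. Only 1 member held runs of 12 or more bases of more than 1 even probe, an intronic region of Rasgef1a with probes 12 and 4.

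Sites of the even probes across the genome were counted by the length of their run and by whether they lay in a peak. Whether the run itself led to the peak was not tested. Away from promoters, and outside Gm19619 itself, 14634 sites had a run of exactly 12 bases, of which 3.05% lay in an even peak of any height and 0.745% in a member. A single repeat array on chromosome 3 held 51 of these sites, and without it the shares were 2.71% and 0.398%. Of 720 sites with a run of 14 bases 28.9% lay in an even peak and 12.2% in a member, and of 48 sites with 16 or more bases 89.6% and 54.2% did. In odd peaks the same sites were found at 0.171%, 0.417% and 8.33%. The 8.33% stands for 4 sites, all of probe 2. Of the 11 sites of probe 2 with 16 or more bases, 10 lay in an even peak and 1 in a member. Most long runs in the genome were thus inside an even peak, and most short ones were not.

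At a given length the share of sites in an even peak differed between the probes. At 13 bases 42.7% of 403 sites of probe 2 lay in an even peak, but 15.7% of 432 sites of probe 12, 4.33% of 577 sites of probe 4 and 0.765% of 784 sites of probe 6. At 14 bases the share was 78.0% for probe 2 and 6.51% for probe 6. Probe 14 stood apart at 15 bases, with 3 of 28 sites in an even peak, while 12 of 14 sites of probe 4 and 17 of 18 of probe 12 were.

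**Figure D3:**
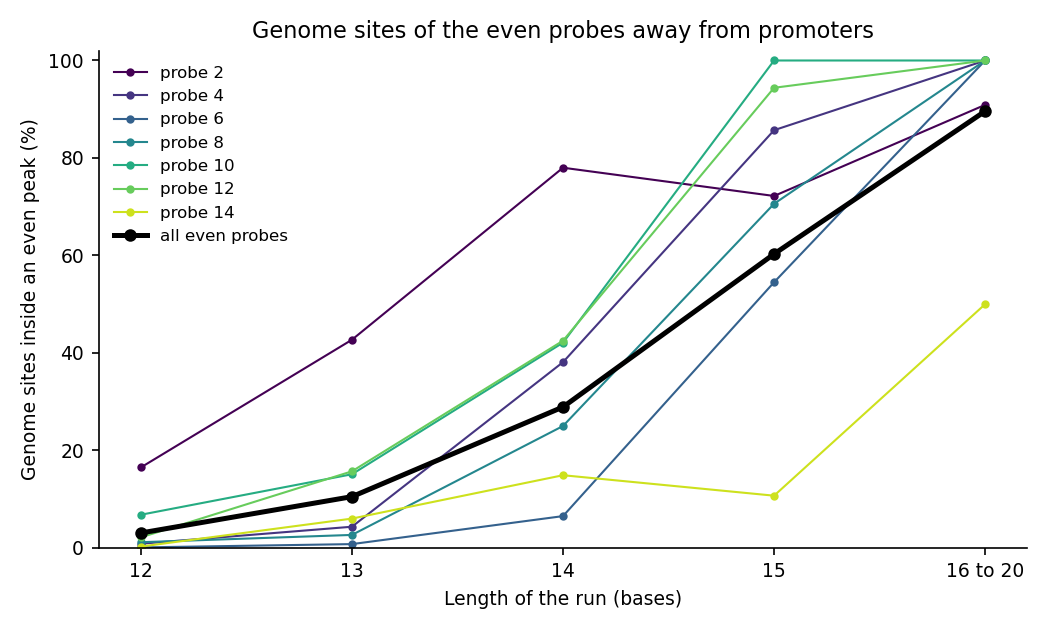
Percent of genome sites of each even probe away from promoters that lie in an even peak of any height, by the length of the run. Probe 2 reaches 78.0% at 14 bases, most probes pass 50% at 15 bases, and probe 14 stays at 10.7% there; the black line takes all even probes together.

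Members matched a wider stretch of each probe than other genome sites did, and for 6 of the 7 probes it began nearer to the 5′ end. At runs of 10 or more bases, positions matched in 80% or more of members ran from 2 to 12 for probe 2, from 3 to 14 for probe 12, from 1 to 14 for probe 14 and from 5 to 16 for probe 4, counting from 1 at the 5′ end. Genome sites of the same probes outside even peaks passed that mark only from 6 to 11, 9 to 12, 10 to 14 and 8 to 10. For probe 10 both began at position 3, and ended at 12 in members and at 10 outside. For probe 2, base 3 matched in 98.3% of members and in 57.9% of sites outside, and base 17 matched in 21.2% and 35.9%. For probe 14, base 1 matched in 90.5% of members and 22.0% of the others. The choice of the longest run in each member favours longer matches there than among all sites outside, so the 2 profiles differ in overall level by construction. A wider stretch starts earlier for that reason alone, and for every probe except probe 14 it also ended later. For probe 4, bases 1 and 2 matched less often in members (38.3% against 52.7%, and 56.7% against 63.5%). Its base 17 matched more often (78.3% against 36.2%). No preference for a side of the probe is read from the starts.

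**Figure D4:**
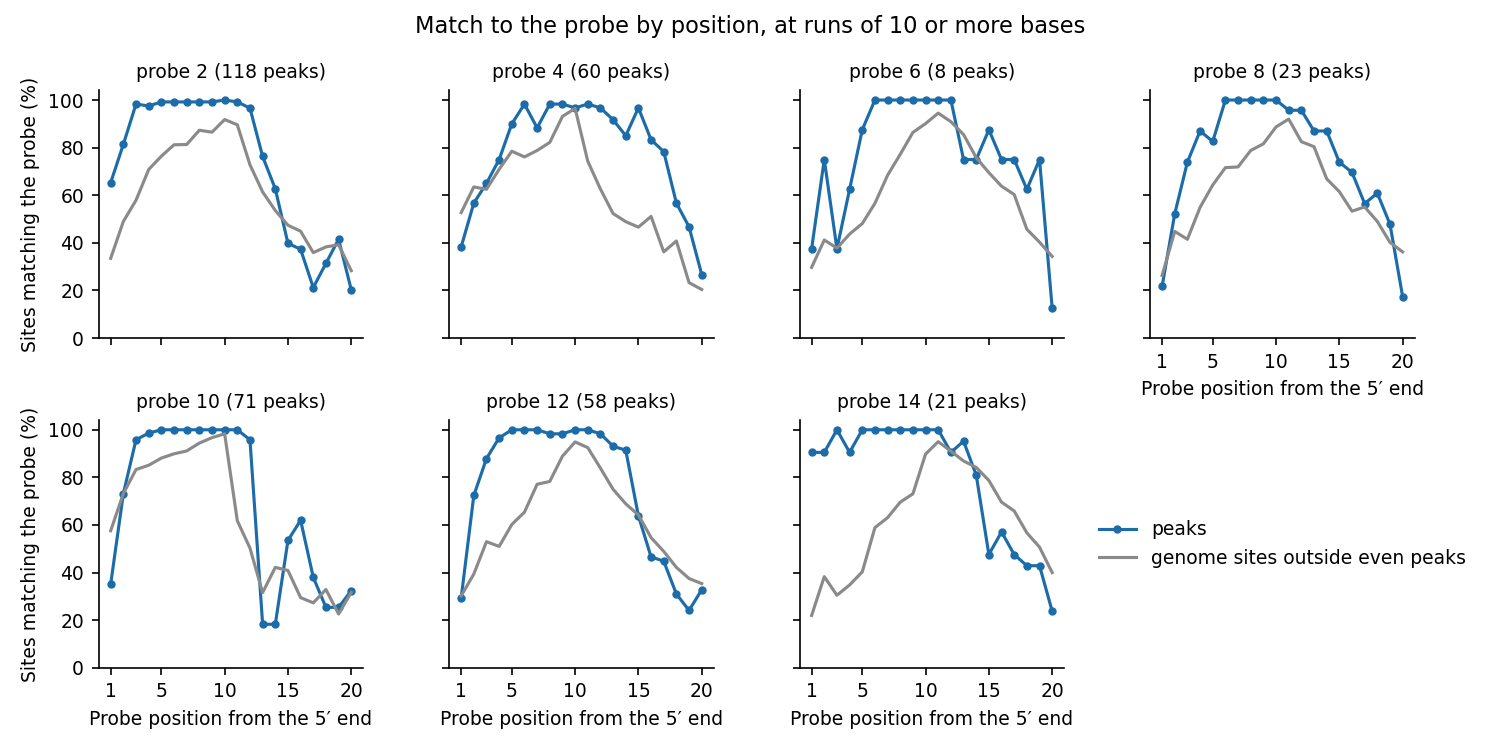
Percent of sites that match the probe at each of its 20 positions, for members (blue, numbers of peaks in the panel titles) and for genome sites with a run of 10 or more bases outside even peaks (grey). Members of probes 2, 10 and 12 match in 80% or more from position 2 or 3 and those of probe 14 from position 1, all fall off after position 12 to 14, and in probe 10 the fall at positions 13 and 14 goes below the grey line.

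Probe 10 showed a further feature that lay outside the run. Of 71 members whose longest run of 10 or more bases was of probe 10, 48 (67.6%) carried both G13T and A14C directly after the run, where the probe's base is written first and the genome's last and positions count from the probe's 5′ end. The probe's own bases at both positions were present in 13 (18.3%). Opposite a probe with the bases of Gm19619, as taken here, these changes put G against A at both places. The sequence of the probe as ordered was not checked. An intron of Ctnna3 and one of Auts2 each held such a member, and their sites are printed here after their values were seen.
Ctnna3, pileup 19, chr10:63688198-63688227, plus strand: aacttcAGCACATTTCCtcagtcacccact
Auts2, pileup 21, chr5:132444389-132444418, minus strand: taaggtcGCACATTTCCtcagattcacact
Sox5, pileup 17, with the probe's own bases there, chr6:143843540-143843569, minus strand: gttacaaaCACATTTCCGAAGGAtgctgtt

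The same pair of changes stood out among all genome sites of probe 10 whose run of 10 or more bases ended at position 12. There were 551 such sites with G13T and A14C, and 149 of them (27.0%) lay in an even peak, 48 of these in members. Of the 5381 sites with any other pair of bases 65 (1.21%) lay in an even peak. With G13T alone 6 of 444 did, and with G13T and A14T 21 of 721 (2.91%) did. Where both positions matched and the run began at position 3 or before, 22 of 45 sites (48.9%) were in an even peak. In odd peaks the sites with G13T and A14C were found once, or 0.181%. The pair was noticed in these data, and why sites with it lay in even peaks was not tested.

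The summit did not sit on the run but to one side of it. In 211 of 271 members with a run of 12 or more bases (77.9%, 72.5% to 82.4%) the centre of the run lay on the 3′ side of the summit along the probe, and the median distance was 38.0 bp, with quartiles at 2.5 and 67.2 bp. The summit was within 50 bp of the nearest base of the run in 61.6% (55.7% to 67.2%) and inside it in 32 members. Because the probe's sequence was on the plus strand in 134 members and on the minus strand in the rest, the shift is not a shift along the chromosome. The odd-only peaks chosen by the same rule had a median of 52.5 bp in the same direction. By probe the median in members ran from 17.0 bp for probe 12 to 70.0 bp for the 6 members of probe 6.

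**Figure D5:**
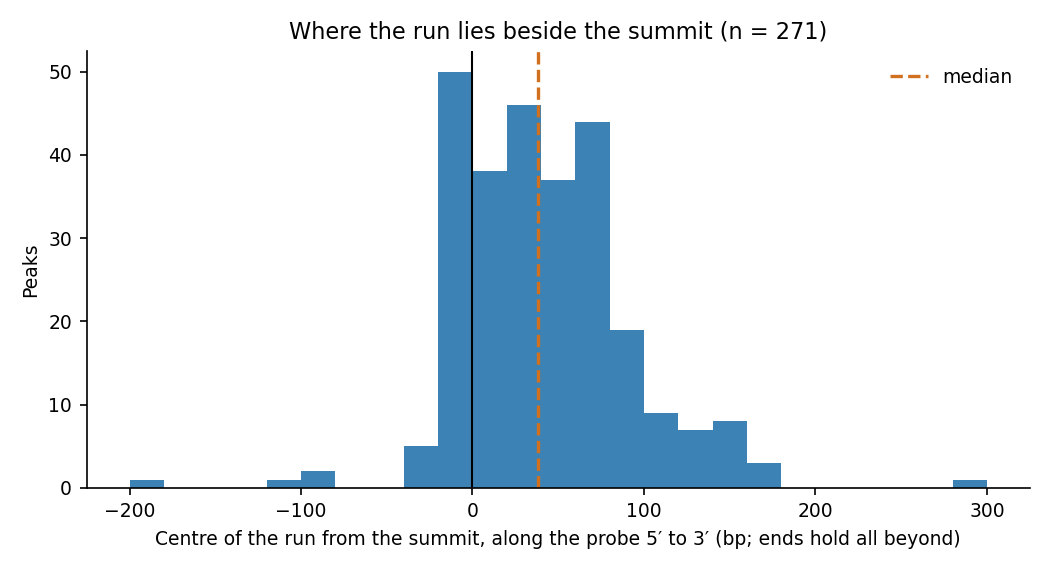
Position of the centre of the run relative to the summit in the 271 members with a run of 12 or more bases, measured in bp along the probe from 5′ to 3′, so that a positive value puts the summit on the 5′ side of the run. The median is 38.0 bp and 211 members are above 0.

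The tallest member was an array of the probe 2 word. At chr3:78945451-78947348, intergenic and 198756 bp from the nearest protein-coding start, the pileup reached 114 and the fold enrichment 75.5. Its 1898 bp held 76 runs of 10 or more bases of probe 2, all on the plus strand, of which 51 had exactly 12, and bases 3 to 11 of the probe, CACTGAGCC, occurred 75 times. These 51 were most of the 12-base sites of probe 2 in members, with 25 in all others. No odd probe had a run of 10 there. A stretch of 180 bases around its summit, plus strand of mm10, is shown with every run of 10 or more bases in capitals.
Highest member, chr3:78946132-78946311: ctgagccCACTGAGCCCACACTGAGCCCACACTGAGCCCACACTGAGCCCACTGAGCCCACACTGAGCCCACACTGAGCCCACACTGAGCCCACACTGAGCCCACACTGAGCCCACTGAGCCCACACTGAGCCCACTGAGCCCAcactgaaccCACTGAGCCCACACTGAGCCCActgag

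Another member with several runs lay in an intron of Plekhm2, which encodes an adaptor that links lysosomes to kinesin. This member, chr4:141639019-141640061, had a pileup of 39 and held 8 runs of 10 or more bases of even probes although none was longer than 10. The strands and spacing of these 8 runs were not compared with the array.

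The other tall members differed in the number and the length of their runs. The second, chr19:10126424-10127349, had a pileup of 66 and a fold enrichment of 44.0, was intergenic and held the 16-base run of probe 4 printed above, 57 bp from its summit. At chr7:106271896-106272534 the pileup was 45 with a run of 15 bases of probe 8, and at chr2:153586648-153587308 it was 38 with a run of 15 of probe 4, both intergenic. At chr6:94998664-94999785, also with a pileup of 45, the run of probe 2 was only 11 bases long, and at chr5:4594507-4595376, with a pileup of 37, it was 11 bases of probe 4 with 15 of 20 matching in all. The sequence from 50 bases before to 50 after the summit occurred nowhere else on chromosomes 1 to 19 in 14 of the 15 tallest members, and in the array on chromosome 3 they occurred in 2 places.

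Gene bodies held 7 of the 15 tallest members, all in introns. Angptl6, which encodes a secreted angiopoietin-like protein made in liver, held a member with a pileup of 41 and a run of 14 bases of probe 12. Inpp5b, an inositol polyphosphate phosphatase gene, held one with a pileup of 41 and 14 bases of probe 14. Ebf1, a transcription factor of B lymphocytes and adipocytes, held one with a pileup of 40 and 13 bases of probe 2. Etfa, a subunit of the flavoprotein that passes electrons from fatty acid oxidation to the respiratory chain, held one with a pileup of 37 and 13 bases of probe 2, with 17 of 20 matching. Erc1, a scaffold protein of vesicle docking sites, and Naaladl2, a peptidase-like gene, held members with a pileup of 36, with 14 bases of probe 14 and 15 bases of probe 2. In the Angptl6 region the summit was 128 bp from the run, and in the Naaladl2 region it lay inside the run.

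Members without a run were a minority of a mixed kind. No run of 10 bases of an even probe was present in 57 members, 13.7% (10.7% to 17.3%), against 50.9% of the weaker even-only peaks and 26.5% of the odd-only peaks with their own set. The weaker peaks were shorter, at a median of 222 bp against 402 bp, and leave fewer bases for a run. Of the 402-bp genome windows 5.35% held an even-probe run of 10 or more bases. In the 201 bases around their summits the best alignment without gaps matched a median of 13 of 20 bases for even probes and 12 for odd probes. It was better for an even probe in 35, equal in 13 and better for an odd probe in 9. An even probe matched at 15 or more positions in 22 and an odd probe in 1. In 6 of them positions 4 to 12 of probe 10 were followed by the same TC as above.

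Of single members without a run, an intronic region of Mast3 with a pileup of 28 matched probe 10 at 15 of 20 positions and an intronic region of Plekhg1 with a pileup of 28 matched probe 8 at 17. An intergenic region at chr6:101022845-101023368 with a pileup of 27 matched no even probe at more than 13 positions, the same as its best odd probe.

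Members lay in gene bodies slightly more often than the bases open to them. The share was 45.9% (41.2% to 50.7%), where gene bodies make up 39.7% of the known bases of chromosomes 1 to 19 that are over 1000 bp from a protein-coding start. It was 42.1% (40.1% to 44.1%) for the weaker even-only peaks and 50.3% (48.7% to 51.9%) for the odd-only peaks. Summits were in introns for 183 of the 191, in coding sequence for 4, in other exons for 3 and in a UTR for 1. The coding ones, named after the count was seen, were in Nav2, Ncam2, Cyp2j5 and Ros1, with pileups of 18, 18, 16 and 15, those in other exons were in Park7, Rmnd1 and Mcc, with 17, 15 and 15, and that in a UTR was in Spire1, with 17. Cyp2j5 is a cytochrome P450 of liver and kidney, and its region held a run of 12 bases of probe 12.

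Gene bodies and intergenic space gave like values. Even-probe runs that reached 12 bases were present in 68.6% (61.7% to 74.7%) of members in gene bodies and 62.2% (55.7% to 68.3%) of intergenic members, and the median pileup was 18 in gene bodies. In the 131 gene-body members with such a run, the probe had the letters of the gene's transcript in 66 and was complementary to the transcript in 65, or 49.6% (41.2% to 58.1%).

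The genes concerned were long ones. Altogether 192 of 20780 protein-coding genes on these chromosomes held a member in the body, or 0.924%. Their median length was 143 kb against 17.6 kb for all genes, and 62.5% of them were 100 kb or longer against 11.4% of all. Lists drawn up for liver metabolism are so short that, at the share of 0.924% over all genes, few or no genes would hold a member. The counts were 0 of 27 genes of gluconeogenesis and glycolysis, 0 of 40 of lipid synthesis and oxidation, 0 of 33 typical hepatocyte genes, and 1 of 31 of insulin and leptin signalling. That gene was Pdpk1, the kinase that activates AKT, whose intronic member at chr17:24095671-24096982 had a pileup of 18, was 92.5% soft-masked (the reference's way of writing repeats) and held no run of 10 of an even probe. In a list of long genes of neurons and adhesion, with a median length of 1070 kb, 8 of 58 genes (13.8%) held a member. Gene length moves with these shares, no test was made, and nothing particular to a list is read from them.

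The 8 long genes were Auts2, Cntnap2, Ctnna3, Dlg2, Fhit, Naaladl2, Pcdh15 and Sox5, each with 1 intronic member. Dlg2, a scaffold of synapses, had a pileup of 16 and a run of 16 bases of probe 8. Cntnap2, an adhesion protein of axons, had a pileup of 15 and a run of 14 of probe 14, with its summit 146 bp away. Fhit, a gene of a common fragile site, had 23 and a run of 16 of probe 6. Pcdh15, a protocadherin of hair cells, had 20 and a run of 12 of probe 12 with 17 of 20 bases matching. Sox5, a transcription factor of cartilage and neurons, had 17 and a run of 15 of probe 10.

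Members were spread over all 19 chromosomes, from 9 on chromosome 19 to 37 on chromosome 6, at 0.174 per Mb of known sequence. The density ran from 0.0916 per Mb on chromosome 7 to 0.286 on chromosome 18. Neighbouring summits were a median of 3884709 bp apart, and only 1 pair lay within 10000 bp, at chr11:3115242-3115567 and chr11:3118778-3119075, both with a pileup of 15 and no run of 10. Mocos, the molybdenum cofactor sulfurase, was the only gene with more than 1 member, at chr18:24659445-24659802 with a pileup of 20 and chr18:24690831-24691134 with a pileup of 16. Each of its members matched a different probe, at 17 of 20 positions in both cases, with a longest run of 10 bases. The longest run of all, 18 bases of probe 4, was in an intergenic member at chr18:52383789-52384238 with a pileup of 23.

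Median repeat content and base composition of the members were close to those of the odd-only peaks. The median soft-masked share was 16.1% (order-statistic interval 14.3% to 18.6%), against 17.2% for the odd-only and 24.0% for the weaker even-only peaks. Peaks soft-masked over 50% or more of their length were more frequent among members than among odd-only peaks. They were 69 members, or 16.6% (13.3% to 20.5%), against 12.2% (11.2% to 13.3%) of the odd-only and 27.6% of the weaker even-only peaks. Of the 57 members with no run of 10, 19 were soft-masked to that extent. The median GC content from 50 bases before to 50 after the summit was 44.6%, against 45.5% for the odd-only and 44.6% for the weaker even-only peaks. The nearest odd peak lay a median of 54900 bp away, against 48900 bp for the weaker even-only peaks. It was within 1000 bp in 10 members, or 2.4%, against 5.18% of the weaker peaks.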

How the data were processed

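The authors captured DNA with an odd and an even set of ChIRP probes and deposited 1 peak list per set. The submitters' processing notes name Novoalign 4.02.02, SAMtools 1.9, MACS2 and mm10. Per the file headers, the authors called peaks with MACS2 2.1.1.20160309, without a control or a local background, with reads extended to 200 bp, 1 read kept per position (10.7% of the even and 11.4% of the odd reads) and a q-value threshold of 0.05. Per the file headers the pileup is the signal of extended reads at the summit. The deposited fold enrichment is the ratio (pileup + 1)/(background + 1), and the deposited −log10 q-value follows from the same pileup.

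Members were selected with Python 3.11.15, numpy 2.4.6 and pandas 2.3.3, with GENCODE M21 genes and GRCm38 sequence. The damaged start of 1 even peak was recomputed from its end and its length. The probe letters of the study's supplement, read here from page images that may have dropped letters, had 1 base too few in 3 of 14 probes, among them the even probes 10 and 12, and each probe was taken as the only 20-base site of Gm19619 that contains those letters. The search for runs was tested on simulated data. Shares have Wilson intervals (scipy 1.17.1), and no test was made. Named regions are the 15 tallest members, the longest run per even probe, members in genes of 5 lists, genes with more than 1 member and the 5 tallest members without a run of 10. For 2 of these 5 the region is not reported here. Members, lists and settings were chosen with earlier results of these data known.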

Additional observations from a re-analysis of the deposited data

How the results depend on the processing

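Of 46 recalculations 29 stayed within the interval of the value reported, or within 1.5 times the count, and 17 did not. The number of members depends on the height asked for, with 760 at a pileup of 12 or more and 173 at 20 or more, and the share with an even-probe run was then 59.9% and 69.9%. That share was 86.3%, 78.1%, 51.4% and 35.3% for runs of at least 10, 11, 13 and 14 bases, where the odd-probe share was 6.49% at 10 and 0.0% at 13 and at 14. It was 59.1% when the run had to lie within 100 bp of the summit. With the probe letters as read from page images of the supplement, an alternative added after the data were seen, it was 50.2%, because probes 10 and 12 then lack a base. Summits were near the run in 43.2% at 25 bp and 90.8% at 100 bp. Counting genes of every annotated type put 54.3% of members in a gene body, and over the whole peak the median GC content was 43.1%. At both other heights and at the 4 other run lengths the even-probe share exceeded the odd-probe share, which was 0.263% at a pileup of 12 or more and 0.578% at 20 or more. All these sets were still taken from the even list and overlapped no odd peak. That choice can itself lower the odd-probe share, so the excess is no independent check.

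The members come from 1 library of pooled cells without replicate or input control, so no value has an error between experiments, and intervals cover counting error only. Reads, alignments and mapping quality were not analysed here. No paired analysis was possible because each probe set has 1 library.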
